A study of Mus musculus with 20 samples.

Results

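*Morc1* and *Tex19.1* are 2 mouse genes of the germline whose proteins repress transposons. They were taken by symbol from the raw count tables of RNA-seq libraries with and without *Zmym2*, a gene for a nuclear zinc-finger repressor. Both were found in all 3 tables, among 17426 genes that the tables share and 25199 genes in any of them. The pair was selected on its values in these libraries, by genotype in embryos, mESCs and EBs and by the change between mESCs and EBs. Levels and fold changes in those comparisons are therefore a description, given with the standard error, with whether the fit over all genes called the gene, and with no p. The sex of the embryos was not used in choosing the pair.

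The embryos were 6 *Zmym2*-/- and 6 *Zmym2*+/+ whole embryos at E8.5, with 3 males (numbers 1 to 3) and 3 females (numbers 4 to 6) in each group. The mutant allele, on a C57BL/6 background, carries a frameshift early in the coding sequence, which need not remove the mRNA. The lines were 2 *Zmym2*-/- and 2 non-target control clones of V6.5, a mouse embryonic stem cell line from a C57BL/6 by 129/SvJae cross, made with a guide against *Zmym2* or with a non-targeting guide. Each line was sequenced as mESCs, grown in serum and LIF, and as embryoid bodies (EBs), aggregates in which the cells begin to differentiate, at day 3. Every line is a single clone, so with 2 clones a group the spread among clones is poorly known.

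Total counts ranged from 32016880 to 64057608 per library. Levels are given as CPM, counts scaled to a common library size, and 1 CPM stood for at least 32 reads. *Zmym2* itself had 25.4 to 67.1 CPM in *Zmym2*-/- embryos, against 50.3 to 125 CPM in *Zmym2*+/+ embryos, with overlap. In the lines it had 27.6 to 31.9 CPM in *Zmym2*-/- and 68.1 to 91.7 CPM in control libraries. *Zmym2*-/- embryos 5 and 6 stood apart, with summed levels of 8 motile cilia genes of 52.7 and 147 CPM, against 13.8 to 29.4 CPM in the other *Zmym2*-/- embryos, against 9.32 to 29.1 CPM in *Zmym2*+/+ embryos. Among the summed levels of 11 trophoblast genes, *Zmym2*-/- embryo 4 and *Zmym2*+/+ embryos 1, 2 and 4 were the highest. Pluripotency markers were present in every line library, at 3311 to 4238 CPM summed over 8 genes in mESCs and 1740 to 1864 CPM in EBs.

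MORC1 belongs to the MORC family of nuclear ATPases, which act in gene silencing. In the mouse it is needed in male germ cells for the methylation and silencing of transposons, and males without it are sterile. TEX19.1 is a mammalian protein of germ cells, pluripotent cells and the placenta that limits retrotransposons in spermatocytes and in placental tissue, and that binds the ubiquitin ligase UBR2. The mouse has a close paralogue, *Tex19.2*. *Tex19.1* is among the germline genes whose promoter is methylated, and the gene silent, in somatic tissue.

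*Morc1* (ENSMUSG00000022652) is protein-coding and lies on the forward strand of chromosome 16, from 48431237 to 48630900 (mm10). It spans 199664 bases, and the transcript with the most exons has 27. *Tex19.1* (ENSMUSG00000039329) is a compact protein-coding gene of 2177 bases with up to 3 exons, on the forward strand of chromosome 11 from 121146143 to 121148319. *Tex19.2* (ENSMUSG00000039337) lies 27.5 kb away on the opposite strand, from 121116215 to 121118677. No window of 100 bases in the annotated transcripts of *Morc1* (6476 windows) or *Tex19.1* (1870 windows) recurred exactly in a transcript of another gene, *Tex19.2* included. Counts are per gene and do not separate transcripts by their start site.

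The 250 bases before the start sites of *Tex19.1* and *Tex19.2* are shown because the paralogues are neighbours with very different levels below. The sequences are from RefSeq (GRCm38.p6), at chr11:121145893-121146142 on the forward strand and chr11:121118678-121118927 on the reverse strand, written 5′ to 3′. Capitals mark the letters GCGGGA or TCCCGC, the core read by E2F factors on either strand.
Tex19.1: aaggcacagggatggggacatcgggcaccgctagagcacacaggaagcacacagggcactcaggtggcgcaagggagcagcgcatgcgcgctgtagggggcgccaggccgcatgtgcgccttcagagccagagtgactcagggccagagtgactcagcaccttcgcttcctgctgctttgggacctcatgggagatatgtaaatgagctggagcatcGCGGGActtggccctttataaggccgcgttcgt
Tex19.2: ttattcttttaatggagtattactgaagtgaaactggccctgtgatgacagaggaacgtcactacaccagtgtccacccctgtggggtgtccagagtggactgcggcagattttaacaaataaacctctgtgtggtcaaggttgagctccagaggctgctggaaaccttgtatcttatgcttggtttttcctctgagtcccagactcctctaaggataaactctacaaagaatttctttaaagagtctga

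The *Tex19.1* window held 1 match to the E2F core, 33 bases before the start site, and 15 CpG dinucleotides. The *Tex19.2* window held no match and 2 CpG. Over 32851 windows of this length, the median was 6 CpG, 27.3% had at least 15, and 16.9% held the E2F core. Neither window held the E-box CACGTG, which reads the same on both strands, overlaps no E2F core and was present in 6.02% of windows. E2F6 and the MGA-MAX pair, DNA-binding parts of the repressive PRC1.6 complex, read such letters. These matches describe the letters only. The promoter of *Morc1* was not analysed here.

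In embryos, *Morc1* separated the genotypes completely, and how many of all genes do so was not counted. It had 2.05, 3.57 and 4.18 CPM as the lowest, median and highest level in *Zmym2*-/- embryos, against 0.108, 0.190 and 0.497 CPM in *Zmym2*+/+ embryos. In reads, this was 84 to 277 per *Zmym2*-/- library and 5 to 19 per *Zmym2*+/+ library. The lowest *Zmym2*-/- embryo (number 4) was thus above the highest *Zmym2*+/+ embryo (number 1), and *Zmym2*+/+ embryos held only a trace of *Morc1* RNA. Means were 3.36 ± 0.788 CPM in *Zmym2*-/- embryos, against 0.235 ± 0.149 CPM in *Zmym2*+/+ embryos (SD, n = 6 each). The log2 fold change was 3.84 (SE 0.40) and the gene was called higher, as were 0.510% of 22729 genes, while 0.0132% were called lower (edgeR quasi-likelihood test, Benjamini-Hochberg adjusted p under 0.05).

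**Figure D1:**
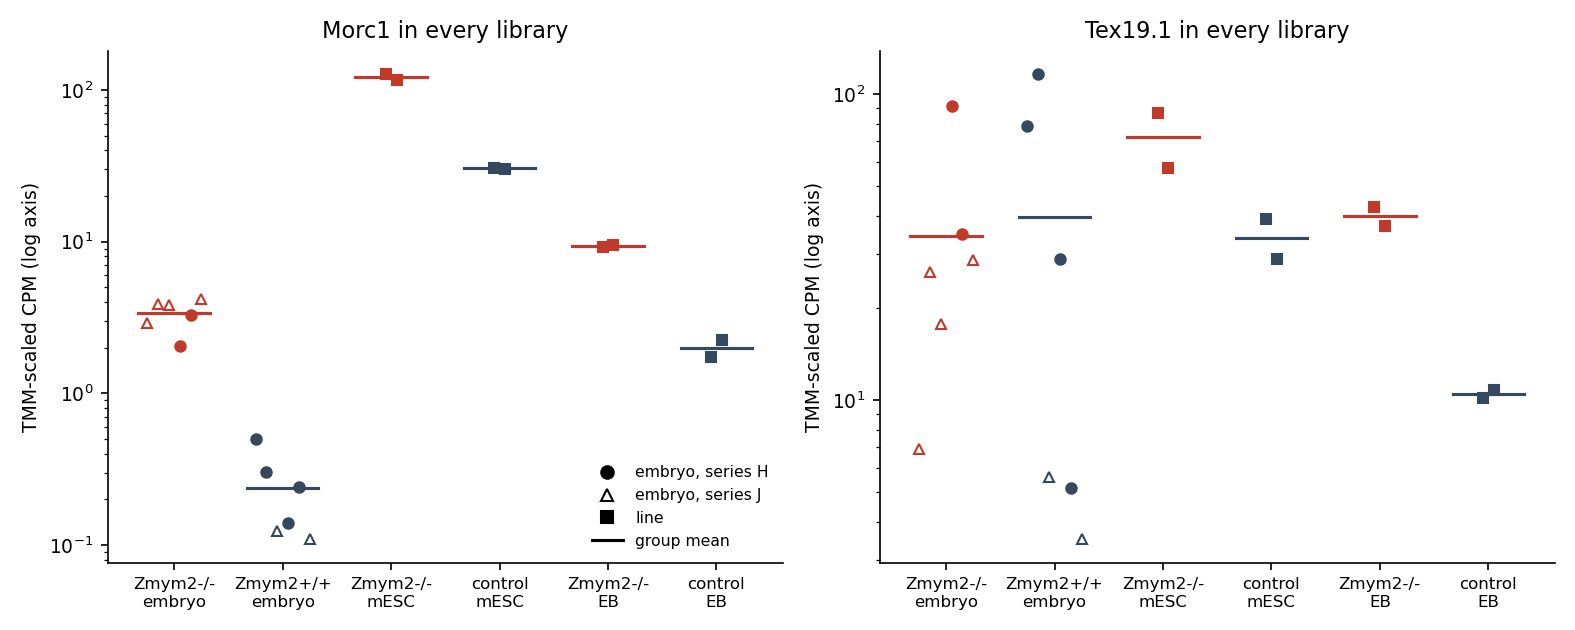
Levels of *Morc1* (left) and *Tex19.1* (right) in all 20 libraries, in CPM on a log axis, with *Zmym2*-/- groups in red and controls in dark blue. Circles and triangles are embryos of series H and J, as read from their names, squares are line libraries and bars are group means. *Morc1* in *Zmym2*-/- embryos sits at 2.05 to 4.18 CPM, above all *Zmym2*+/+ embryos, whereas *Tex19.1* in *Zmym2*+/+ embryos spreads from 3.50 to 116 CPM.

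*Tex19.1* did not separate the embryos. Its lowest, median and highest levels were 6.91, 27.5 and 91.3 CPM in *Zmym2*-/- embryos, against 3.50, 17.3 and 116 CPM in *Zmym2*+/+ embryos, so the ranges lay across each other. Means were 34.3 ± 29.6 CPM in *Zmym2*-/-, against 39.6 ± 47.2 CPM in *Zmym2*+/+ embryos (SD, n = 6 each). The log2 fold change was -0.21 (SE 0.83), the gene was not called, and the sign turned positive under 10 of 25 alternatives. Depth was not limiting, with 482 to 3737 reads per *Zmym2*-/- library and 213 to 4227 reads per *Zmym2*+/+ library.

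The first letter of each embryo's name was read here as a series, H or J, and the number as a litter, which gives 6 litters. No label states either reading. In series J, *Tex19.1* had 6.91, 26.2, 17.8 and 28.8 CPM in the 4 *Zmym2*-/- embryos (numbers 1, 2, 3 and 6), against 5.62 and 3.50 CPM in the 2 *Zmym2*+/+ embryos (numbers 3 and 6). All 4 *Zmym2*-/- levels were above both *Zmym2*+/+ levels, and how many of all genes part in this way was not counted. The log2 fold change was 2.12 (SE 0.58), which the fit of these 6 embryos did not call. In series H, the 2 *Zmym2*-/- embryos (numbers 4 and 5) had 91.3 and 35.0 CPM, against 78.4, 116, 29.0 and 5.16 CPM in *Zmym2*+/+ embryos 1, 2, 4 and 5, with a log2 fold change of 0.14 (SE 0.92). With series as a covariate the log2 fold change over all 12 embryos was 1.12 (SE 0.76), not called.

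*Morc1* was higher in both series. Within series J its log2 fold change was 4.98 (SE 0.41, called), with 2.91 to 4.18 CPM in *Zmym2*-/- embryos, against 0.108 to 0.124 CPM in *Zmym2*+/+ embryos. Within series H it was 3.17 (SE 0.51), with 2.05 to 3.30 CPM in *Zmym2*-/- embryos, against 0.139 to 0.497 CPM in *Zmym2*+/+ embryos. Series H alone gave no call for *Morc1*, and 1 gene in all was called higher there.

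Within the 3 litters that hold both genotypes, the genes also parted. The litter of series J had 28.8 CPM of *Tex19.1* in its *Zmym2*-/- embryo and 5.62 CPM in its *Zmym2*+/+ embryo. One litter of series H had 91.3 CPM in its *Zmym2*-/- embryo and 78.4 and 29.0 CPM in its *Zmym2*+/+ embryos. The other litter of series H went the opposite way, with 35.0 CPM in its *Zmym2*-/- embryo and 116 CPM in its *Zmym2*+/+ embryo. For *Morc1*, the *Zmym2*-/- embryo was the higher one in all 3, at 4.18, 2.05 and 3.30 CPM, against at most 0.497 CPM in a *Zmym2*+/+ littermate. With litter as a block over these 7 embryos, the log2 fold changes were 3.58 (SE 0.63) for *Morc1* and 0.54 (SE 0.72) for *Tex19.1*, neither of them called.

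*Tex19.1* moved with markers of trophoblast, the placental lineage that also expresses it. The sum of 11 trophoblast genes was 128, 172, 151, 1185, 312 and 191 CPM in *Zmym2*-/- embryos 1 to 6, against 1148, 2093, 307, 546, 228 and 101 CPM in *Zmym2*+/+ embryos 1 to 6. The 3 embryos with the highest sums, *Zmym2*-/- embryo 4 and *Zmym2*+/+ embryos 1 and 2, were also the 3 with the most *Tex19.1*, and the embryo with the lowest sum (*Zmym2*+/+ embryo 6) had the least. All 11 genes were detected in both groups. *Hand1* weighed most in the sum of every embryo, at 94.4 to 566 CPM in *Zmym2*-/-, against 55.0 to 941 CPM in *Zmym2*+/+ embryos. *Prl3d1*, a placental hormone of giant cells, had 0.846 to 94.2 CPM in *Zmym2*-/-, against 0.651 to 330.4 CPM in *Zmym2*+/+ embryos, and *Elf5*, a regulator of trophoblast stem cells, 0.377 to 17.7 CPM in *Zmym2*-/-, against 1.65 to 22.7 CPM in *Zmym2*+/+ embryos. None of the 11 was called between genotypes, beside 0.510% of all genes called higher and 0.0132% lower. None had a positive log2 fold change, and their median was -0.98, beside 0.02 over all genes. In such whole-embryo RNA, a change in the number of cells of a type and a change in RNA per cell cannot be told apart, and the part of trophoblast in the levels of *Tex19.1* was not tested.

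Embryos of similar marker sums, in which *Hand1* weighs most, can be set side by side, as a description chosen after the values were seen. *Zmym2*-/- embryo 5 (marker sum 312 CPM) had 35.0 CPM of *Tex19.1*, against 5.62 CPM in *Zmym2*+/+ embryo 3 (307 CPM). *Zmym2*-/- embryo 6 (191 CPM) had 28.8 CPM, against 5.16 CPM in *Zmym2*+/+ embryo 5 (228 CPM). Each of these pairs joins an embryo of series H with an embryo of series J. At the lowest sum of each genotype the levels were closer, with 6.91 CPM in *Zmym2*-/- embryo 1 (128 CPM) and 3.50 CPM in *Zmym2*+/+ embryo 6 (101 CPM), both of series J. At high sums the levels were close, with 91.3 CPM in *Zmym2*-/- embryo 4 (1185 CPM) and 78.4 CPM in *Zmym2*+/+ embryo 1 (1148 CPM). For *Morc1*, *Zmym2*-/- embryo 4, the highest of its group in trophoblast genes, had the lowest level of the group (2.05 CPM). Among *Zmym2*+/+ embryos, numbers 1 and 2, with the highest sums, had the most *Morc1* (0.497 and 0.303 CPM), and number 6, with the lowest sum, had the least (0.108 CPM).

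**Figure D2:**
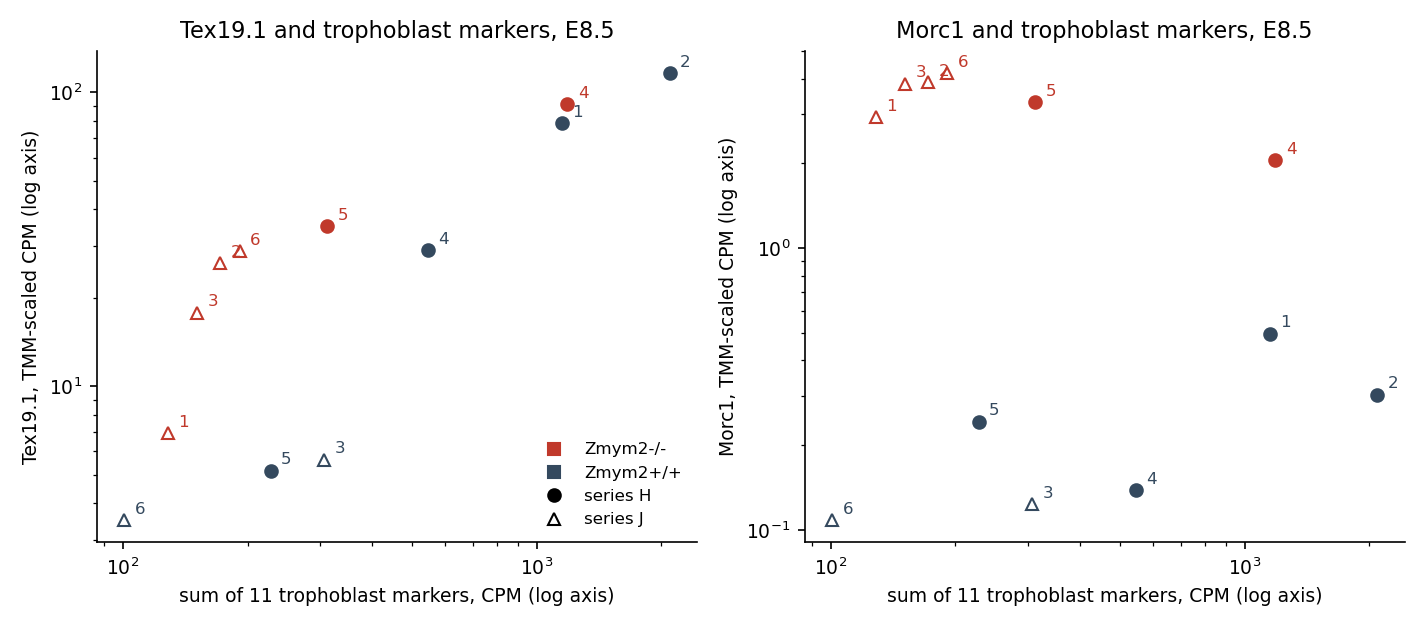
*Tex19.1* (left) and *Morc1* (right) in each of the 12 embryos, in CPM, against the summed CPM of 11 trophoblast markers, all on log axes. Numbers are embryo numbers, red is *Zmym2*-/- and dark blue *Zmym2*+/+, and filled circles and open triangles are series H and J. *Tex19.1* is highest (78.4 to 116 CPM) in the 3 embryos with the highest sums, whereas *Morc1* splits by genotype at every sum.

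Markers of other cell types were set beside *Morc1*. The summed level of 10 primordial germ cell markers was 85.0 to 480 CPM in *Zmym2*-/- embryos, against 75.6 to 297 CPM in *Zmym2*+/+ embryos, and none of the 10 was called. Of the 10, 8 had positive log2 fold changes. *Dppa3* had 1.75 to 4.31 CPM in *Zmym2*-/-, against 0.048 to 1.13 CPM in *Zmym2*+/+ embryos, and so weighs little in the sum. *Pou5f1*, also a pluripotency marker here, weighs more, at 2.74 to 364 CPM in *Zmym2*-/- and 4.28 to 61.3 CPM in *Zmym2*+/+ embryos. *Zmym2*-/- embryos 1 to 3 had sums of 85.0 to 124 CPM, below those of 5 of the 6 *Zmym2*+/+ embryos, with *Morc1* at 2.91 to 3.89 CPM. The 7 visceral endoderm markers had positive log2 fold changes (median 0.63), none called, with sums of 5621 and 6277 CPM in *Zmym2*-/- embryos 5 and 6, 1625 to 3383 CPM in the other *Zmym2*-/- embryos and 1312 to 3091 CPM in *Zmym2*+/+ embryos. The 8 pluripotency markers, none called, summed to 108.1 to 548.3 CPM in *Zmym2*-/- embryos, against 108.8 to 235 CPM in *Zmym2*+/+ embryos, and were highest in *Zmym2*-/- embryo 6, which also had the most *Morc1*. The part of these cell types in the levels of *Morc1* was not tested. Without *Zmym2*-/- embryos 5 and 6, the log2 fold change of *Morc1* was 3.76 (SE 0.43, called), and that of *Tex19.1* -0.16 (SE 1.00).

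Sex was not used in choosing the genes, so the sex by genotype interaction was tested. *Tex19.1* averaged 51.7 CPM in female *Zmym2*-/- and 12.6 CPM in female *Zmym2*+/+ embryos, and 17.0 CPM in male *Zmym2*-/- and 66.8 CPM in male *Zmym2*+/+ embryos (n = 3 each). The genotype difference, females minus males, was 4.02 on the log2 scale (SE 1.39, edgeR adjusted p = 0.122), which did not pass over all genes. The call appeared without *Zmym2*+/+ embryo 3 (4.55, adjusted p = 0.0375) or embryo 4 (5.51, adjusted p = 0.0497). The 11 trophoblast genes had a median interaction of 6.63, beside 0.07 over all genes, and their part in the value for *Tex19.1* was not tested. All 3 male *Zmym2*-/- embryos came from what was read as a single litter of series J, so sex and litter cannot be told apart among them. For *Morc1* the interaction was 0.75 (SE 0.69, adjusted p = 0.5505), with log2 fold changes of 4.26 in females and 3.57 in males. The edgeR fit called 0% of genes for this interaction, though 5067 had an unadjusted p under 0.05 and DESeq2 called 1310 higher and 1229 lower.

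In mESCs, both genes were higher without *Zmym2*, and *Morc1* by more. *Morc1* had 127 and 117 CPM in the *Zmym2*-/- lines, against 30.8 and 30.3 CPM in the control lines. *Tex19.1* had 86.8 and 57.5 CPM in the *Zmym2*-/- lines, against 39.0 and 28.9 CPM in the control lines. Neither gene overlapped between the groups of 2 libraries, and how many of all genes separate in this way was not counted. *Tex19.1* was the more variable between lines of a genotype, with an SD of 20.8 CPM in *Zmym2*-/- and 7.18 CPM in control lines, against 7.51 and 0.314 CPM for *Morc1*. The log2 fold changes were 2.00 (SE 0.09) for *Morc1* and 1.09 (SE 0.17) for *Tex19.1*. Both were called higher, among 10.3% of genes called higher and 8.94% called lower. Other cell states moved with genotype in these libraries. Summed over 10 genes, markers of primed cells and germ layers had 114 and 135.7 CPM in *Zmym2*-/- mESC lines 1 and 2, against 43.9 and 37.7 CPM in control lines 1 and 2. The list was split, with 6 of the 10 at positive log2 fold changes, 4 called higher and none lower. *Pou3f1* averaged 57.4 CPM in *Zmym2*-/- and 17.9 CPM in control mESCs. *Eomes* (6.84 against 9.87 CPM), *T* (0.216 against 0.577 CPM) and *Sox17* (0.267 against 1.10 CPM) had lower means in *Zmym2*-/- mESCs. The 8 pluripotency markers summed to less in *Zmym2*-/- mESCs, with 5 called lower and none higher. *Klf4* (log2 fold change -1.88, SE 0.09) and *Esrrb* (-0.91, SE 0.07) were among the 5. The list did not move as one, with 2 of the 8 at positive log2 fold changes. *Pou5f1* averaged 1722 CPM in *Zmym2*-/- and 1639 CPM in control mESCs, and *Sox2* 507 and 499 CPM. The 6 trophoblast genes counted there summed to 15.8 and 12.4 CPM in *Zmym2*-/- mESCs, against 6.74 and 4.88 CPM in control mESCs. The part of these shifts in the levels of *Morc1* and *Tex19.1* was not tested.

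In EBs, both genes were again higher without *Zmym2*, at lower levels than in mESCs. *Morc1* had 9.28 and 9.44 CPM in *Zmym2*-/- EBs, against 1.73 and 2.25 CPM in control EBs. *Tex19.1* had 42.7 and 37.1 CPM in *Zmym2*-/- EBs, against 10.2 and 10.8 CPM in control EBs. *Tex19.1* in *Zmym2*-/- EBs was thus within or near its range in undifferentiated control mESCs, while *Morc1* in *Zmym2*-/- EBs was below its own level there. The log2 fold changes were 2.23 (SE 0.18) for *Morc1* and 1.93 (SE 0.10) for *Tex19.1*, and both were called higher, among 4.62% of genes called higher and 2.77% called lower. Of 7 trophoblast genes tested in EBs 2 were called higher (median log2 fold change 0.74), and the 6 counted at both stages summed to 14.9 and 11.5 CPM in *Zmym2*-/- EBs, against 11.4 and 8.08 CPM in control EBs. Of 7 visceral endoderm genes 2 were called lower (median -2.07), at low levels. The 5 counted at both stages summed to 8.10 and 7.95 CPM in *Zmym2*-/- EB lines 1 and 2, against 17.0 and 6.87 CPM in control EB lines 1 and 2. The part of these cell types in the levels of *Morc1* and *Tex19.1* was not tested.

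Between mESCs and EBs, *Morc1* was lost almost in proportion in both genotypes. In *Zmym2*-/- lines 1 and 2, EBs held 7.28% and 8.09% of the *Morc1* level of the same line as mESCs, against 5.62% and 7.43% in control lines 1 and 2. The log2 fold change of EBs over mESCs was -3.71 (SE 0.10) in *Zmym2*-/- and -3.93 (SE 0.12) in control lines, called lower in both. The difference of these changes was 0.23 (SE 0.16), not called.

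*Tex19.1* was retained to a larger extent. EBs held 49.2% and 64.6% of the mESC level in *Zmym2*-/- lines 1 and 2, against 26.0% and 37.4% in control lines 1 and 2. Both *Zmym2*-/- lines thus kept a larger share than either control line, and how many of all genes part the lines in this way was not counted. The log2 fold change of EBs over mESCs was -0.85 (SE 0.17) in *Zmym2*-/- and -1.70 (SE 0.19) in control lines, called lower in both. The difference, *Zmym2*-/- minus control, was 0.84 (SE 0.25) and was not called, but it was called at 0.85 (SE 0.15) with the line as a replicate block, and at 1.17 without *Zmym2*-/- mESC line 1. Of 8 pluripotency markers, 5 were called higher and none lower for this difference (median 0.97), but from other levels. Their sum was lower in *Zmym2*-/- than control mESCs (3311 to 3488 against 4055 to 4238 CPM). In EBs it was closer (1740 to 1799 against 1814 to 1864 CPM). *Tex19.1* was higher in *Zmym2*-/- lines at both stages. The part of these markers in the value of *Tex19.1* was not tested. Over all genes, 23.1% were called higher and 22.1% lower in *Zmym2*-/- EBs, 23.0% and 23.6% in control EBs, and 3.07% and 2.18% for the difference. The comparisons in mESCs, in EBs and between stages share libraries.

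*Tex19.2* stayed low throughout. It had 0.0573 to 0.293 CPM in *Zmym2*-/-, against 0.0618 to 0.330 CPM in *Zmym2*+/+ embryos, 1.58 and 1.98 CPM in *Zmym2*-/- and 1.55 and 0.865 CPM in control mESCs, and 1.68 and 1.73 CPM in *Zmym2*-/- and 0.751 and 1.07 CPM in control EBs. Its log2 fold changes were -0.36 (SE 0.47) in embryos, 0.55 (SE 0.35) in mESCs and 0.91 (SE 0.30) in EBs, none of them called (edgeR adjusted p = 0.788, 0.320 and 0.1004). *Ubr2*, the ligase that TEX19.1 binds, had log2 fold changes of 0.31 (SE 0.19), -0.18 (SE 0.09) and -0.08 (SE 0.07) in the same comparisons, also not called.

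Levels of the 2 genes were compared with each other only per length, as RPKM deposited by the authors. *Tex19.1* exceeded *Morc1* in every library. The ratio was lowest in mESCs, at 1.70 to 2.36 in *Zmym2*-/- and 3.30 to 4.39 in control lines, then 13.6 to 15.9 in *Zmym2*-/- and 16.6 to 20.3 in control EBs. In embryos it was 3.87 to 72.5 in *Zmym2*-/- embryos, against 34.6 to 629 in *Zmym2*+/+ embryos.

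In order of mean RPKM, *Morc1* had 18.5 ± 0.875 in *Zmym2*-/- mESCs (SD, n = 2) and 4.64 ± 0.0700 in control mESCs (n = 2). Then came *Zmym2*-/- EBs at 1.48 ± 0.0347 (n = 2) and *Zmym2*-/- embryos at 1.15 ± 0.282 (n = 6), whose means differ by little more than 1 SD of the embryos. Control EBs followed at 0.311 ± 0.0580 (n = 2) and *Zmym2*+/+ embryos at 0.0733 ± 0.0442 (n = 6). For *Tex19.1* the order was *Zmym2*-/- mESCs at 37.7 ± 10.3 (n = 2), *Zmym2*-/- EBs at 21.8 ± 1.93 (n = 2), *Zmym2*-/- embryos at 18.6 ± 15.4 (n = 6) with *Zmym2*+/+ embryos just above them at 19.4 ± 22.6 (n = 6), control mESCs at 17.9 ± 3.86 (n = 2) and control EBs at 5.66 ± 0.247 (n = 2). *Zmym2*+/+ embryos alone ran from 1.89 to 55.4 RPKM, across the means of all other groups, so no neighbours of the embryo groups in this order differ beyond their spread. Embryos and lines were sequenced and processed as separate sets.

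The genes around each member were read next. *Morc1* lies beyond *Dppa4* and *Dppa2*, which encode paired chromatin proteins of pluripotent cells and early germ cells, at 137 and 111.5 kb. *Dppa2* had 107.5 to 135.7 CPM in *Zmym2*-/- and 67.4 to 67.7 CPM in control mESCs. It was called higher in mESCs (log2 fold change 0.85, SE 0.11, edgeR adjusted p = 0.000131) and in EBs (0.42, SE 0.07, adjusted p = 0.00490), and had 1.52 (SE 0.67, adjusted p = 0.396) in embryos. *Dppa4* was called higher in mESCs alone (0.35, SE 0.08, adjusted p = 0.0106), with -0.01 (SE 0.06) in EBs and 0.92 (SE 0.77) in embryos. In every comparison these fold changes were smaller than that of *Morc1*. The other 8 genes, among them *Nectin3*, *Dzip3*, *Cip2a* and *Bbx*, were called in none of the 3 genotype comparisons. Thus 2 of 10 neighbours were called higher in mESCs and 1 of 10 in EBs, beside 10.3% and 4.62% of all genes.

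Around *Tex19.1*, the nearest counted genes are *Tex19.2* and, 12 kb downstream, *Uts2r*, which encodes the urotensin receptor and had 0.266 to 0.378 CPM in *Zmym2*-/- and 0.167 to 0.257 CPM in control mESCs. Of the 10 neighbours, *Hexdc*, 56.1 kb away, was called higher in mESCs (log2 fold change 0.57, SE 0.17, edgeR adjusted p = 0.0341) and had 0.05 (SE 0.21) in embryos and 0.01 (SE 0.15) in EBs. No other neighbour was called between genotypes in embryos, mESCs or EBs. Between stages, 4 of the 10 were called higher in *Zmym2*-/- EBs and 4 in control EBs, and none was called lower, beside 23.1% and 23.0% of all genes called higher and 22.1% and 23.6% called lower. The 1 of 10 called in mESCs is close to the 10.3% of all genes called higher there.

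**Figure D3:**
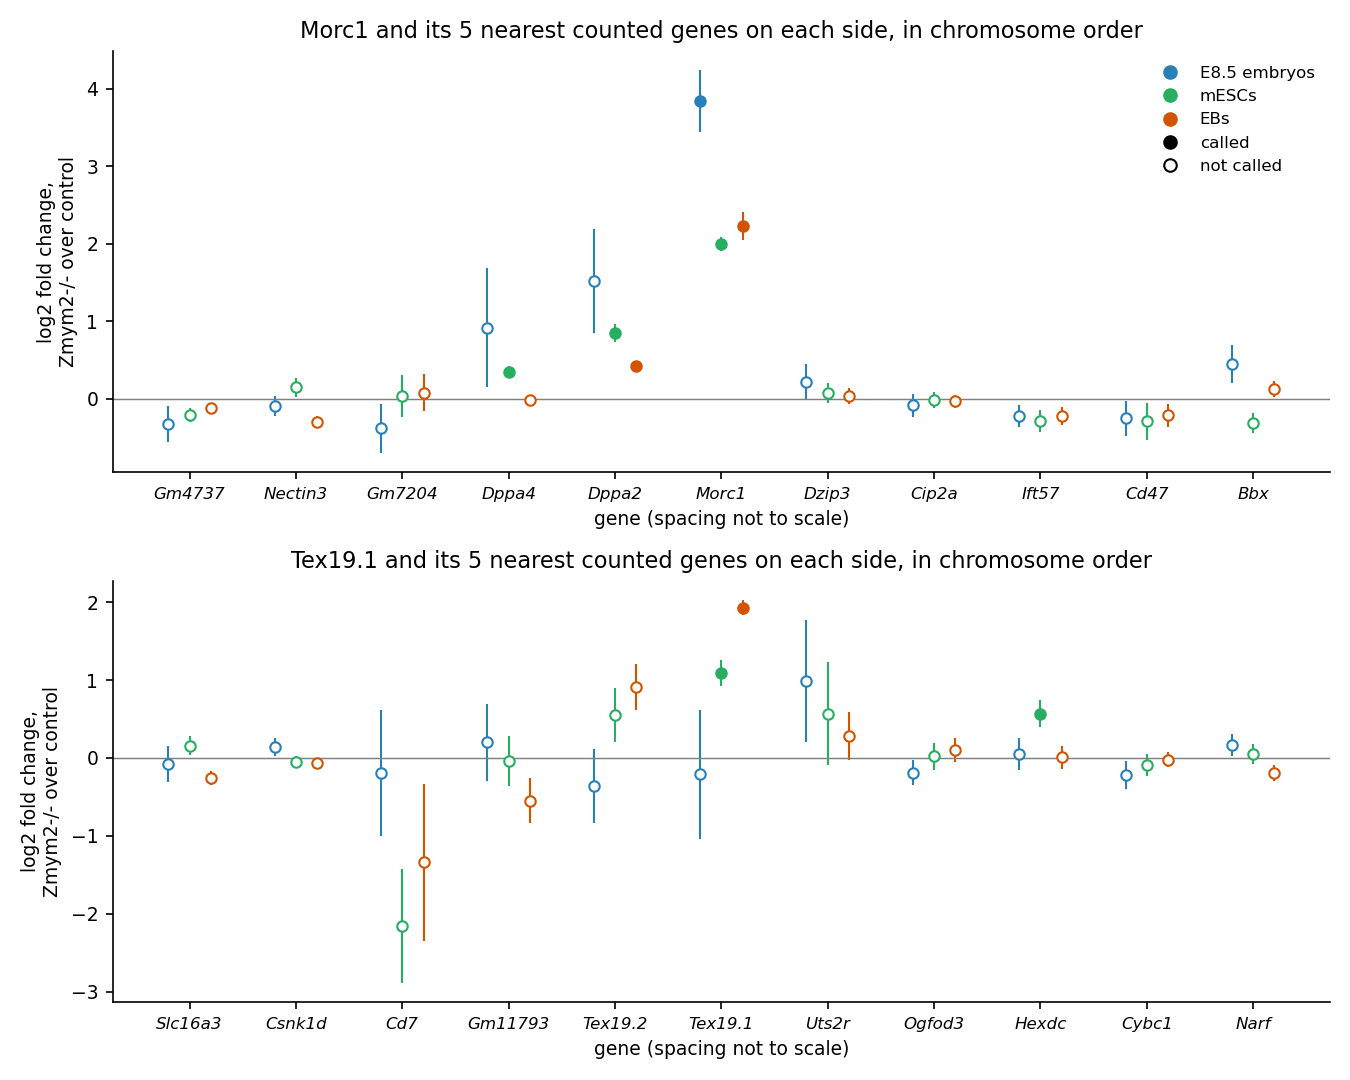
Log2 fold changes, *Zmym2*-/- over control, of *Morc1* (top), *Tex19.1* (bottom) and the 5 nearest counted genes on each side, in chromosome order and not to scale, for embryos, mESCs and EBs by colour. Bars are standard errors and filled points are called. Beside *Morc1* (3.84, 2.00 and 2.23), *Dppa2* is called in mESCs (0.85) and EBs (0.42), and beside *Tex19.1* only *Hexdc* is called, in mESCs.

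The remaining MORC genes did not share the pattern of *Morc1*. In embryos the log2 fold changes were 0.54 (SE 0.16) for *Morc2a*, a partner of the HUSH silencing complex, -0.03 (SE 0.14) for *Morc3*, which silences endogenous retroviruses, and 0.28 (SE 0.32) for *Morc4*. None of these 3 was called in embryos, and none of 4 in mESCs. In EBs *Morc2a* was called higher (0.35, SE 0.05, edgeR adjusted p = 0.00197) and *Morc4* lower (-0.60, SE 0.16, adjusted p = 0.0387). The call of *Morc4* was lost when any single EB library was left out, by DESeq2 and in the fit of all 8 line libraries.

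Genes of the piRNA pathway, which makes the small RNAs that direct transposon silencing in germ cells, were set beside the pair. This list and the others were chosen with results of these libraries known, so their counts are not independent evidence. In embryos, 6 of 26 were called higher and none lower, beside 0.510% and 0.0132% of all genes, with a median log2 fold change of 0.86, beside 0.02 over all genes. *Mael* (4.53, SE 0.43), *Rnf17* (2.09, SE 0.18), *Tdrd1* (2.08, SE 0.30) and *Tex15* (1.97, SE 0.19), which act in piRNA granules or in piRNA-directed methylation, were among them (edgeR adjusted p between 0.000142 and 0.00445). Without *Zmym2*-/- embryos 5 and 6, the count was also 6. It was 3 in series J alone, 0 in series H alone, 5 in males alone, 1 in females alone and 0 with the litter block. In mESCs 6 of 25 were called higher and 2 lower, beside 10.3% and 8.94% of all genes, with a median of 0.16, led by *Fkbp6* (3.99, SE 0.20) and *Tdrd12* (2.00, SE 0.11). In EBs 10 of 26 were called higher and none lower, beside 4.62% and 2.77% of all genes, with a median of 0.78, *Tdrd12* (2.23, SE 0.13) and *Piwil2*, a PIWI protein (1.23, SE 0.15), among them.

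Of the other germline genes, mostly of meiosis, 9 of 19 were called higher in embryos (median log2 fold change 2.27), 8 of 19 in mESCs (0.67) and 13 of 20 in EBs (1.15). None was called lower, though in mESCs only 16 of the 19 had positive log2 fold changes. The shares of all genes called higher were 0.510%, 10.3% and 4.62% in these comparisons. *D1Pas1*, a testis RNA helicase, rose in all 3, by 4.53 (SE 0.55), 2.22 (SE 0.17) and 2.36 (SE 0.14). *Dmc1*, the meiotic recombinase, rose by 2.62 (SE 0.25) in embryos, as did *Cyct*, the testis cytochrome c (4.27, SE 0.46). *Hormad1*, which organises meiotic chromosome axes, rose by 2.47 (SE 0.17) in mESCs, and *Sohlh2*, a germ cell transcription factor, by 2.29 (SE 0.19) in EBs. Without *Zmym2*-/- embryos 5 and 6, 6 of the 19 were called higher in embryos. The embryo count was 5 in series J alone and in males alone, 4 with the replicate block, and 0 in series H alone, in females alone and with the litter block. By DESeq2 8 of the 20 were called higher in EBs. *Morc1*, at 3.84, 2.00 and 2.23, was thus within the range of the called germline genes in each comparison, and *Tex19.1* within it in mESCs and EBs.

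The last list held chromatin and DNA methylation factors that silence transposons in somatic or pluripotent cells, some of which also act in germ cells. In embryos none of 13 was called, beside 0.510% of all genes called higher and 0.0132% lower. Of the 13, 12 had positive log2 fold changes, with a median of 0.37, beside 0.02 over all genes. In mESCs 6 of 12 were called higher and none lower, beside 10.3% and 8.94% of all genes, and 9 of the 12 had positive log2 fold changes. Among those called higher were the DNA methyltransferase genes *Dnmt3b* (1.70, SE 0.15) and *Dnmt3a* (1.00, SE 0.14), their cofactor *Dnmt3l* (1.32, SE 0.16), which has no such activity of its own, and the SETDB1 partner *Atf7ip* (0.61, SE 0.09). In EBs 3 of 12 were called higher, *Atf7ip* (0.88, SE 0.07), *Dnmt3l* (0.57, SE 0.07) and *Pphln1* (0.21, SE 0.06). *Dnmt3a* was called lower there, by 0.28 on the log2 scale (SE 0.06), beside 4.62% of all genes called higher and 2.77% lower. For the difference between stages, *Dnmt3b* was lower by genotype (-1.83, SE 0.21, edgeR adjusted p = 0.000414), one of the genes of this list called lower, 3 of 12 in all. Of 25 piRNA genes 4 were called higher for this difference and none lower, with a median of 0.29, beside 3.07% of all genes called higher and 2.18% lower. They were *Tex15* (1.46, SE 0.17), *Mov10l1* (1.46, SE 0.20), *Ddx4* (1.13, SE 0.16) and *Piwil2* (1.03, SE 0.19), whereas *Tex19.1*, at 0.84, was not called. Markers of primed cells and germ layers, whose sum was higher in *Zmym2*-/- mESCs, summed to 593.7 and 652.7 CPM in *Zmym2*-/- EBs, against 600.4 and 652.2 CPM in control EBs. Their part in these differences was not tested.

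**Figure D4:**
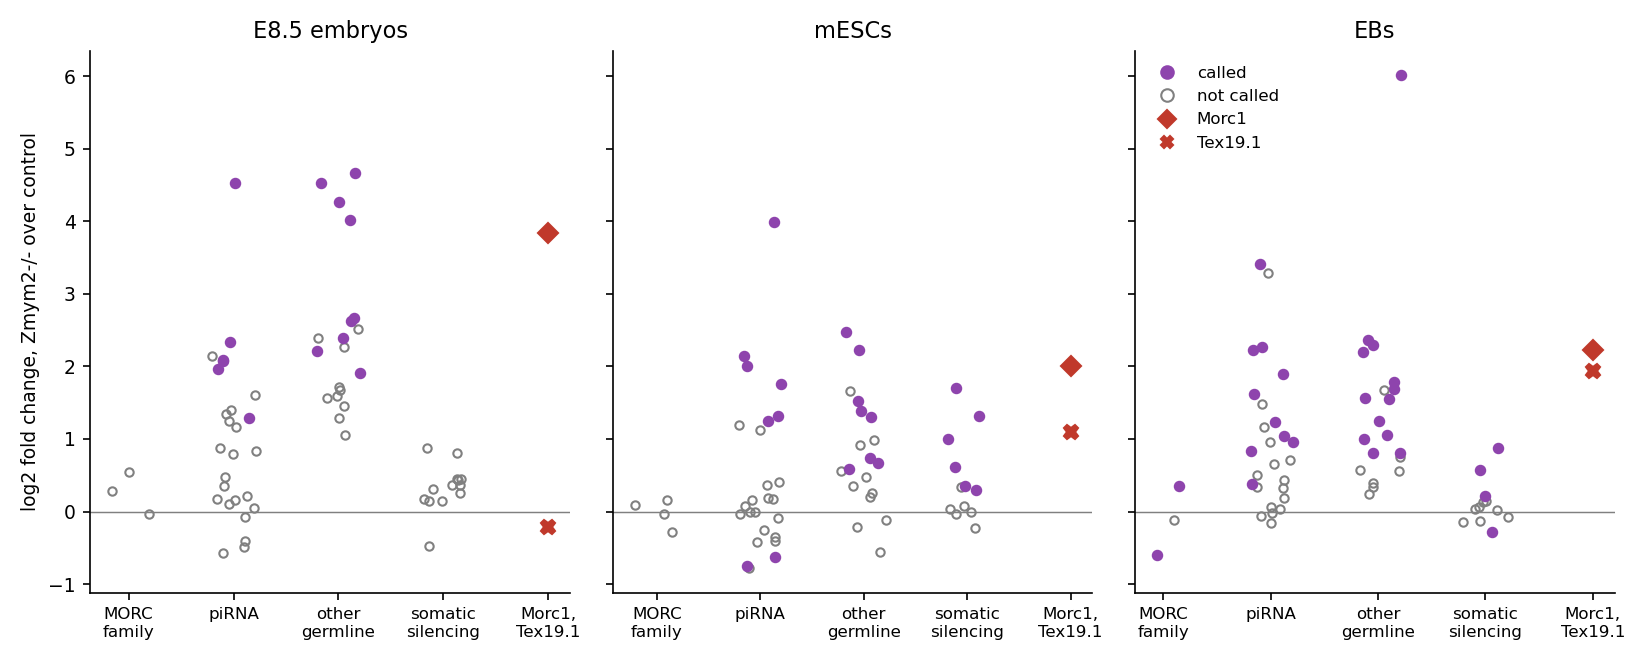
Log2 fold changes, *Zmym2*-/- over control, of the genes of 4 lists and of *Morc1* (diamond) and *Tex19.1* (cross), in embryos, mESCs and EBs. Each circle is a gene, filled where called and placed sideways at random. *Morc1* sits at 3.84, 2.00 and 2.23 and *Tex19.1* at -0.21, 1.09 and 1.93, while the 3 or 4 other MORC genes stay between -0.60 and 0.54.

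Over all 20 libraries, the genes most like *Morc1* by Pearson's r of log2(CPM + 0.1), among 14907 others, were *Gm13110* (0.954), *1700001L05Rik* (0.948), *Fam178b* (0.948), *Smim40* (0.946) and *Dppa3* (0.945), a factor of oocytes, preimplantation embryos and primordial germ cells. Those most like *Tex19.1* were *Slc30a2* (0.923), a zinc transporter gene, *Pramef12* (0.910), *Htatip2* (0.878), *Mageb16* (0.871) and *Faap24* (0.868). The pair was less alike, at 0.456, and 1198 genes were more like *Tex19.1* than *Morc1* was. These values are descriptions over libraries that share stage and genotype. In the 12 embryos alone none of the 10 remained among the top 5 of its gene. There *Morc1* was nearest to *Tcf24* (0.988), *Reg2* (0.983) and *D1Pas1* (0.981), and *Tex19.1* to *Zfp42* (0.979), a marker of pluripotent cells that trophoblast also expresses, and *Usb1* (0.977).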

How the data were processed

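RNA-seq was made from 12 E8.5 embryos and from 8 samples of V6.5 lines, with a stranded mRNA kit. Upstream steps by the authors were trimming (Trimmomatic 0.34), alignment on mm10 (STAR 2.7.8a), duplicate marking (Picard 2.9.0) and gene counting (HTSeq-count). The version, the annotation and the strand setting of that step are not given in the sources used here. The raw counts deposited by the authors are not normalized. They cover 22729 genes for embryos, 20159 for mESCs and 20142 for EBs. The normalized scores deposited by the authors beside them were used only to check the counts. RPKM deposited by the authors came from StringTie (1.3.5) and served only to compare the 2 genes per length.

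Counts were fitted in R (4.3.3) with edgeR (4.0.16), over genes with at least 10 counts in sum, scaled by TMM, with the two-sided quasi-likelihood test and Benjamini-Hochberg adjustment over all genes tested (called under 0.05). A standard error is the size of the log2 fold change divided by the root of its F statistic. Stage comparisons used the 8 line libraries in 1 fit (18926 genes). CPM are TMM-scaled, over the 12 embryos or over the 8 line libraries. The fit was tested on simulated data. Total counts were 32016880 to 64057608 per library, and the lowest read counts of the pair were those of *Morc1* in *Zmym2*+/+ embryos (5 to 19 reads). Alternatives were DESeq2 (1.42.0) and its size factors, other filters, covariates or blocks for sex, series, litter and replicate, each series or sex alone, and each replicate left out.

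The members and lists were chosen with earlier results of these data known. The text names *Zmym2*, the pair, the 5 nearest counted genes on each side, the 5 genes most like each, and up to 4 genes of each list with the smallest p in a comparison; markers and *Tcf24*, *Reg2*, *D1Pas1*, *Zfp42* and *Usb1* in embryos were named after their values were seen. All 17426 shared gene IDs matched GENCODE M21 (mm10). Line numbers in the column names of both stages were read as the same line, and deviations of same-numbered mESCs and EBs correlated at 0.426 in *Zmym2*-/- and 0.195 in control lines. P-values measure only the spread between these embryos and clones.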

Additional observations from a re-analysis of the deposited data

Results flagged for a closer look

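*Tex19.1* in *Zmym2*-/- embryo 4 stood far from the other 5 *Zmym2*-/- embryos, at 91.3 CPM (48.3 RPKM), against 35.0 CPM in the next highest. The gap was 0.667 of the group's range in CPM and 0.672 in RPKM, above Dixon's critical value of 0.625 for 6 samples. This embryo also had the highest trophoblast marker sum of its group (1185 CPM), whose part in the value was not tested. About 1 in 20 groups would be singled out this way by chance, and 4 groups were examined in each unit.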

How the results depend on the processing

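In mESCs, EBs and both stage comparisons, *Morc1* and *Tex19.1* kept their direction and call under every alternative run, replicates left out included. The *Morc1* call in embryos was kept in 22 of 25 alternatives with every replicate left out in turn among them, and was absent in series H alone (3.17), in females alone (4.26) and with the litter block (3.58), fits that hold fewer embryos. *Tex19.1* in embryos was called in none of 25, over a range of -1.94 (males alone) to 2.12 (series J alone). Its value was positive in series H alone (0.14), series J alone (2.12), females alone (2.04), with the litter block (0.54), with sex (0.03) or series (1.12) as a covariate and with the replicate block (0.90), and it ran from -0.79 to 0.51 with a replicate left out, being positive without *Zmym2*-/- embryo 1 (0.01) or *Zmym2*+/+ embryos 1 (0.11) or 2 (0.51). The cause was not tested.

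The sex interaction of *Tex19.1* ran from 3.30 to 5.51 with a replicate left out. Its stage by genotype difference ran from 0.58 to 1.17 with a replicate left out and was called with the replicate block (0.85), where calls over all genes were 1299 higher and 1026 lower, against 581 and 412 without it. Embryo numbers do not pair genotypes: deviations of same-numbered embryos correlated at -0.468 to 0.408, and no embryo correlated best with its own number. With that replicate block 49 genes were called higher in embryos, against 116 without it. Same-numbered lines of the 2 genotypes correlated at -0.0515 in mESCs and -0.0606 in EBs, and that block changed no call of the pair in mESCs or in EBs. Counts over all genes in embryos also fell to 46 higher in series J alone, 11 in females alone and 1 in series H alone or with the litter block, and those lower, 3 in the fit of 12 embryos, were 253 in males alone and 39 without *Zmym2*+/+ embryo 5. The sex interaction had 882 genes higher and 771 lower without *Zmym2*+/+ embryo 3, 318 and 417 without *Zmym2*+/+ embryo 4, and 95 and 113 without *Zmym2*-/- embryo 4. In mESCs 2068 genes were higher and 1803 lower, against 1330 and 1021 without control line 2. In EBs 558 were lower, against 841 with the replicate block and 291 in the fit of all 8 line libraries. For the stage by genotype difference the lowest counts with a replicate left out were 216 higher and 174 lower. DESeq2 called 324 genes higher and 32 lower in embryos, and 76 and 1 were called without *Zmym2*-/- embryos 5 and 6, an alternative chosen after seeing the data. As ratios of mean RPKM with a pseudocount of 1, the log2 differences of *Morc1* were 1.00 in embryos and 0.92 in EBs, since its levels are near or below the pseudocount. Depth limits *Morc1* in *Zmym2*+/+ embryos, and 2 clones limit every comparison of lines.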
